A study of Mus musculus with 2 samples.

Results

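The collagen family of the embryonic mouse stomach was described from total RNA sequencing of 2 libraries. Members were all protein-coding genes whose GENCODE mouse symbol is Col, a number, the letter a and a number, in both gene tables. In all, 44 genes met this rule among 43346 Ensembl genes, of which 21461 are nuclear and protein-coding. The rule used symbols only and no measured value. Both libraries belong to 1 group: whole stomach of B6NCrl mice at embryonic day 16.5, male and female embryos pooled, with no treatment or engineered allele named in the labels. The labels call the libraries biological replicates 1 and 2; they give 41 embryos for replicate 2 and no number for replicate 1. With 1 group no conditions could be compared, so the family was described by its levels, by the balance of chains within a library, by its transcripts and by the distance between the pools. Levels are TPM, a gene's length-corrected share of all transcripts, and errors are the SD over n = 2 libraries. In bulk tissue, fewer cells of a type and less RNA per cell cannot be told apart.

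Collagens are extracellular proteins in which 3 chains wind into a triple helix. Each chain repeats a triplet with glycine at the first place, and the small glycine is needed for the chains to pack. Fibrillar collagens have a long unbroken helix and assemble into the fibrils of connective tissue. Type IV collagen forms the sheet under epithelia and around muscle and vessels, type VI forms beaded filaments, and FACIT collagens (fibril-associated collagens with interrupted triple helices) sit on the surface of fibrils. In the stomach wall they lie in the lamina propria, the submucosa, the muscle layers and the basement membranes.

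The repeat can be read in the gene itself, and 7 exons are shown as examples. The first 5 were picked for a length of 54 bases within an unbroken repeat, and the other 2 for a break in it. They illustrate the repeat and do not stand for their classes: in Col6a1 only 3 of 19 helix exons have 54 bases. The classes are measured below. Glycine codons of the repeat are in capitals, or the part of such a codon that lies in the exon where a splice site divides it. Coordinates are GRCm38 (mm10), each exon is coding and lies inside the helix, and letters run 5′ to 3′ on the gene's strand. The first 5 are exons of 54 bases, which hold 6 triplets each: exon 6 of Col3a1 (chr1:45325360-45325413, plus strand), exon 8 of Col1a1 (chr11:94939904-94939957, plus), exon 8 of Col1a2 (chr6:4515481-4515534, plus), exon 6 of Col5a2 (chr1:45434892-45434945, minus) and exon 9 of Col6a1 (chr10:76719623-76719676, minus).
Col3a1: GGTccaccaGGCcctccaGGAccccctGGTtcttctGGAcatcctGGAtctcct
Col1a1: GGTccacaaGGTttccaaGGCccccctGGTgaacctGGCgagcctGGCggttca
Col1a2: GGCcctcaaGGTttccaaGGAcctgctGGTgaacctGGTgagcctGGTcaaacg
Col5a2: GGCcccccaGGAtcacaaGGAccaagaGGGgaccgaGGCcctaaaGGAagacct
Col6a1: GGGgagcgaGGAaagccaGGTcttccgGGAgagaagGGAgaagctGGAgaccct
The other 2 are from type IV genes, where the repeat breaks inside the exon: exon 19 of Col4a1 (chr8:11236426-11236510, minus, 85 bases) and exon 19 of Col4a2 (chr8:11415364-11415474, plus, 111 bases).
Col4a1: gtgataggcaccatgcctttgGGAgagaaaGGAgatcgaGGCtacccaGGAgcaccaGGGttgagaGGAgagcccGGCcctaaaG
Col4a2: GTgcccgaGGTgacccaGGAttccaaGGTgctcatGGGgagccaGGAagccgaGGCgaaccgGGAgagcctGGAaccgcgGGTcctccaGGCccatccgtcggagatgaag
In the first 5 every triplet opens with a capital. In Col4a1 the stretch before the first capital, and in Col4a2 the stretch after the last complete triplet, has none.

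The 2 libraries held 44567153 and 25677702 expected counts (the authors' estimated reads per gene) in replicates 1 and 2. All 6 stomach markers were detected, from Cym, the gene of the milk-clotting enzyme chymosin, at 6131 and 10063 TPM to Gkn1 at 5.12 and 17.98. Fibroblast markers were detected for 8 of 9 genes, with Dcn highest at 579.0 and 656.1 TPM and Thy1 lowest at 0.90 and 0.68. Skeletal muscle markers differed most between the pools: all 10 were beyond 2-fold higher in replicate 1, their summed level was 2477 against 202 TPM, and the lowest of them, Myh3, stood at 32.67 and 1.60.

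Collagen transcripts were abundant and concentrated in few genes. Together the 44 members made up 6649 TPM in replicate 1 and 7098 in replicate 2, or 0.839% and 0.864% of the protein-coding TPM (mean 0.851 ± 0.0177%). Counted as reads, which favours long transcripts, they took 2.478% (95% Wilson interval 2.474 to 2.483) and 2.395% (2.389 to 2.401) of the protein-coding counts; the intervals cover counting error only. In all, 38 of 44 members (86.4%) reached 1 TPM in both libraries, the level called detected here, against 64.3% of all nuclear protein-coding genes. A mean of 10 TPM was reached by 22 members and of 100 TPM by 9. The order of levels spanned from Col3a1 at 2405 and 2771 TPM to Col10a1 at 0.23 and 0.12. Of the 43 pairs of neighbours in that order, 25 kept their order in both libraries and 24 were further apart than the SD of their log2 difference.

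**Figure D1:**
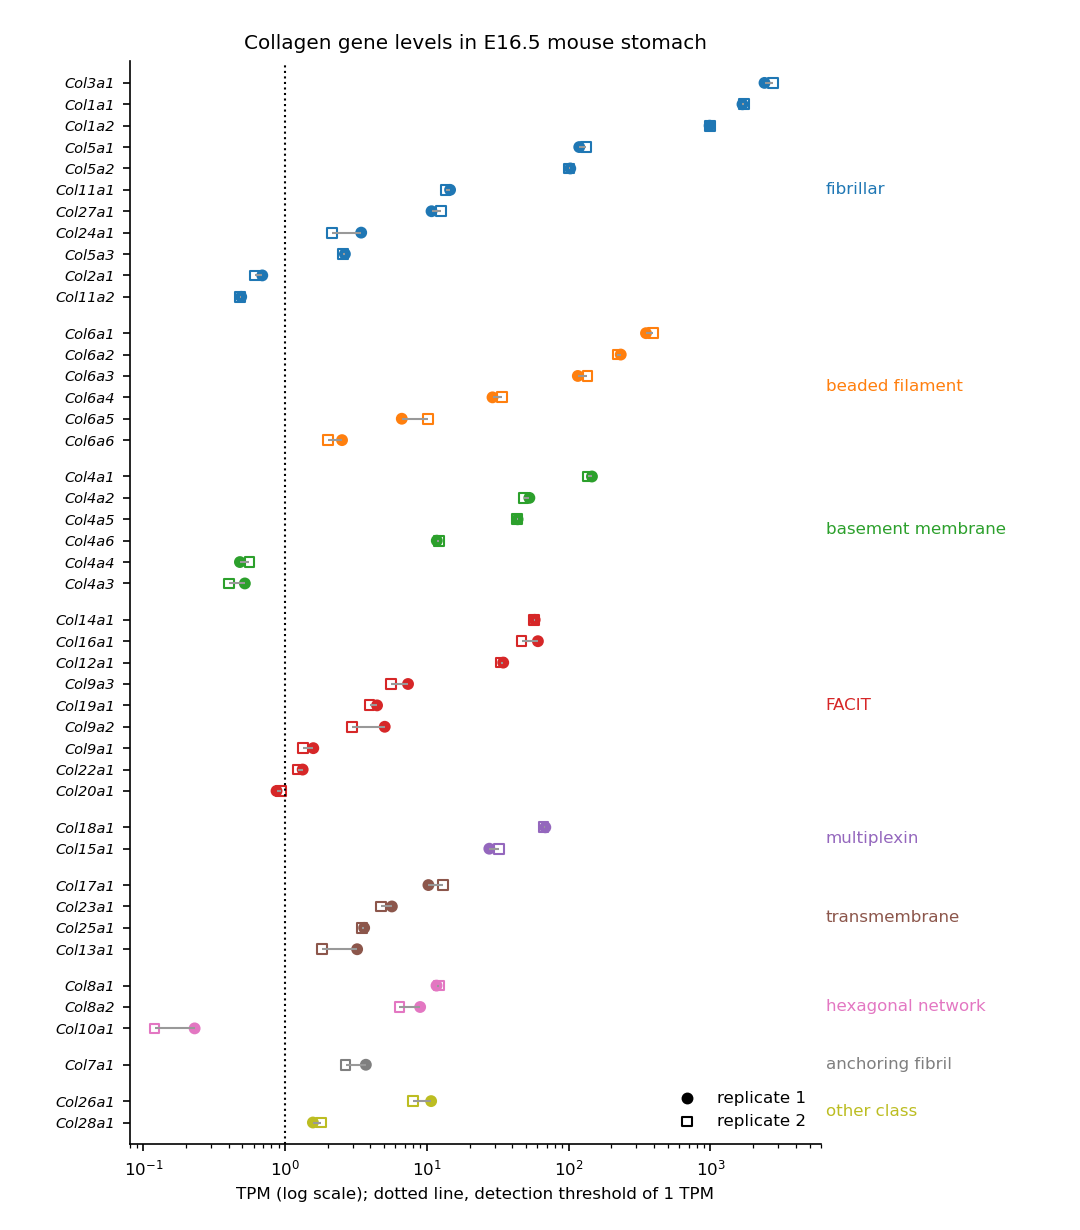
TPM of each of the 44 collagen genes (log axis) in replicate 1 (filled circles) and replicate 2 (open squares), grouped by class; the grey line joins the libraries and the dotted line is 1 TPM. Col3a1, Col1a1 and Col1a2 lie apart to the right of all others, and 6 genes lie left of the dotted line.

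Fibrillar collagens carried most of the family's transcripts. They made up 80.6 ± 0.690% of collagen TPM (80.12% and 81.09%), and 9 of 11 were detected. Col3a1 encodes the only chain of type III collagen, the fibre of distensible organs (ENSMUSG00000026043; chromosome 1, 45311538 to 45349706). It stood at 2405 and 2771 TPM (2588 ± 259), the 15th highest protein-coding gene, and alone gave 37.7% of collagen TPM. Col1a1 (chromosome 11, 94936224 to 94953042), the first chain of type I collagen, stood at 1682 and 1733 TPM (1708 ± 36.2). Its partner Col1a2 (chromosome 6, 4504814 to 4541544) stood at 986.1 and 986.8 (986.4 ± 0.516). In both libraries Col3a1 was above Col1a1 and Col1a1 above Col1a2, by more than the SD of each difference. The lead of Col3a1 was much smaller by complete coding transcripts, a measure described below. They stood at 1828 and 1820 TPM, against 1676 and 1723 for Col1a1. Expected counts were 318057 and 181129 for Col3a1 and 300099 and 172503 for Col1a1. The rank and share of Col3a1 given here are gene levels, which include a short incomplete model described below. The 3 genes together held 76.3% and 77.4% of collagen TPM.

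Type V collagen nucleates type I fibrils and sets their width. Col5a1 (chromosome 2, 27886425 to 28039514) stood at 118.7 and 132.6 TPM and Col5a2 (chromosome 1, 45374321 to 45503282) at 102.6 and 100.3, while Col5a3, for a further chain of the type, reached only 2.64 and 2.57. The expected counts of Col5a1 are not whole (tolerance 0.005), so part of its reads was shared with other features. Col5a2 lies close to Col3a1 on chromosome 1, on the opposite strand, and its mean level was about 1 in 26 of that of Col3a1 on the TPM scale. Col11a1, which replaces type V chains in cartilage fibrils and is found in other tissues at lower levels, stood at 14.57 and 13.53 TPM. Col27a1 and Col24a1, whose helix is shorter, stood at 10.78 and 12.53 and at 3.44 and 2.15 TPM. The cartilage fibril genes Col2a1 (0.69 and 0.61) and Col11a2 (0.49 and 0.48) were not detected. Of the 9 cartilage markers, 3 were detected in the same libraries: Sox9 at 26.27 and 26.17 TPM, Hapln1 at 3.07 and 3.14 and Cnmd at 2.49 and 1.64. The proteoglycan gene Acan stood at 0.33 and 0.21, Matn1 at 0.05 and 0.03, and Ucma was listed at 0 in both.

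Type VI collagen was the second class by level, with 11.1 ± 0.0692% of collagen TPM and all 6 genes detected. Its molecule joins the products of Col6a1, Col6a2 and a longer chain. Col6a1 (chromosome 10, 76708792 to 76726168) stood at 350.9 and 392.7 TPM and Col6a2, on the same strand (chromosome 10, 76595762 to 76623630), at 232.9 and 220.7. Col6a3 (chromosome 1, 90765923 to 90843971), the usual long chain, stood at 116.0 and 135.5. The related long chains Col6a4, Col6a5 and Col6a6 lie in a cluster on chromosome 9. They stood at 29.02 and 33.69, at 6.65 and 10.13, and at 2.52 and 2.00 TPM. So the order of the long chains was Col6a3, Col6a4, Col6a5, Col6a6 in both libraries. Reads of Col6a4, Col6a5 and Col6a6 were partly shared with other features, by the same sign as for Col5a1, and those levels are estimates of a split.

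Basement membrane collagen IV made up 3.62 ± 0.305% of collagen TPM, with 4 of 6 genes detected. The 6 genes form 3 head-to-head pairs. Col4a1 and Col4a2, the chains of nearly all basement membranes, start 21 bases apart on opposite strands of chromosome 8 (Col4a1, 11198423 to 11312826; Col4a2, 11312805 to 11449287). Col4a1 stood at 145.9 and 137.3 TPM and Col4a2 at 52.81 and 48.08. The second pair lies on the X chromosome with starts 1309 bases apart and is known from smooth muscle and some epithelia: Col4a5 stood at 43.60 and 43.10 TPM and Col4a6 at 11.74 and 12.24. The third pair, Col4a3 (0.52 and 0.40) and Col4a4 (0.48 and 0.56), is known from the filter of the kidney and was not detected. Smooth muscle markers were all 6 detected, from Acta2 at 2117 and 2612 to Des at 156.8 and 139.5 TPM, and endothelial markers were all 6 detected at 12.33 to 101.1 TPM.

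FACIT genes made up 2.38 ± 0.322% of collagen TPM and 8 of 9 were detected. Col14a1, whose product coats fibrils in loose and dense connective tissue, stood at 57.56 and 57.15 TPM. Col16a1 stood at 60.66 and 46.49 and Col12a1, which links fibrils in tissues under load, at 34.54 and 33.08. Col14a1 and Col16a1 changed places between the libraries at the gene level, while their complete coding transcripts, a measure described below, stood at 39.15 and 38.06 against 11.84 and 11.11 TPM. The other FACIT members were below 10 TPM: Col9a3 at 7.36 and 5.60, Col9a2 at 5.04 and 2.98, Col19a1 at 4.45 and 3.94, Col9a1 at 1.58 and 1.34, Col22a1 at 1.33 and 1.23, and the undetected Col20a1 at 0.87 and 0.94. The 3 chains of type IX collagen, known from the surface of cartilage fibrils, were therefore above 1 TPM where the type II chain they cover in cartilage was not. This rests on the threshold. Col2a1, at 0.69 and 0.61 TPM, would count as detected at 0.5 TPM. Its expected counts were 103 and 38, beside 140 and 69 for Col9a1, the lowest of the 3.

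The remaining classes were small. Multiplexins, which sit at the outer face of basement membranes and carry anti-angiogenic fragments at their ends, made up 1.42 ± 0.0375%, with Col18a1 at 68.41 and 66.55 TPM and Col15a1 at 27.56 and 32.13. Transmembrane collagens made up 0.334 ± 0.0117%. Col17a1, a hemidesmosome protein of squamous basal cells, led them at 10.25 and 13.02 TPM. Col23a1 stood at 5.66 and 4.75, Col25a1 at 3.61 and 3.50, and Col13a1, known from the neuromuscular junction, at 3.22 and 1.83. Col7a1, the chain of the anchoring fibrils under squamous epithelium, stood at 3.71 and 2.67. Basal squamous markers were all 6 detected, from Krt15 at 1197 and 1477 to Itgb4, the partner of Col17a1 in the hemidesmosome, at 15.31 and 20.43 TPM. Among the hexagonal network genes, Col8a1 stood at 11.69 and 12.16 TPM and Col8a2 at 8.96 and 6.40, while Col10a1, a marker of hypertrophic cartilage, was not detected. Col26a1 stood at 10.71 and 7.93 and Col28a1, known from peripheral nerve, at 1.57 and 1.79.

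The balance between chains of one molecule was stable within libraries for some pairs and not for others. Col1a1 over Col1a2 was 1.71 and 1.76 on the TPM scale (log2 0.79 ± 0.03), where a type I molecule holds 2 chains of the first and 1 of the second. Col4a1 over Col4a2 was 2.76 and 2.85 (log2 1.49 ± 0.03), where type IV molecules of these genes hold the same numbers of each, 2 and 1. Col4a5 over Col4a6 was 3.71 and 3.52 (log2 1.85 ± 0.05). Col6a1 over Col6a2 was 1.51 and 1.78 (log2 0.71 ± 0.17) and Col6a1 over Col6a3 3.03 and 2.90 (log2 1.57 ± 0.04), where type VI holds 1 of each. Col5a1 over Col5a2 was 1.16 and 1.32 (log2 0.31 ± 0.14). Among low genes, Col8a1 over Col8a2 was 1.30 and 1.90 and Col9a1 over Col9a2 0.313 and 0.450. These are ratios of transcripts, and no protein was measured. The first exons of Col4a1 and Col4a2 overlap by 22 bases on opposite strands, and whether the counting used strand is not given in the sources used here. Both genes have whole expected counts. Col9a3 and Col4a3, like Col5a1, do not, so their levels rest on a split of reads.

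Part of the gene-level signal was assigned to transcript models that do not hold a whole coding sequence. This share was large for some long collagens. A complete coding transcript here is one annotated as protein-coding whose coding sequence is not marked as cut short at either end. Over 34 detected members with both kinds of model in use, the median share in complete transcripts was 84.5% and 77.1% in replicates 1 and 2. It was 81.0% and 80.9% over 8120 protein-coding genes chosen the same way, so such a division is not particular to collagens. Col3a1 had a gene level of 2405 and 2771 TPM, but its complete transcript Col3a1-201 (51 exons) stood at 1828 and 1820 (1824 ± 5.35). The rest was almost all Col3a1-205, a model of 737 bases near the 3′ end, with 560.9 and 916.7 TPM or 23.3% and 33.1% of the gene. So the libraries lay much closer for the complete transcript than for the gene. For Col1a1 and Col1a2, complete transcripts held 99.4% or more and 95.9% or more of the gene in each library.

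Col6a3 was divided most among genes above 100 TPM. Complete coding transcripts held 53.72 and 56.32 TPM (46.3% and 41.6%), and Col6a3-206, a retained-intron model of 646 bases, held 42.1% and 49.4%. For Col16a1 only 19.5% and 23.9% lay in the complete transcript, at 11.84 and 11.11 TPM, and Col16a1-207, of 833 bases at the 3′ end, held 39.9% and 41.8%. Col12a1-204, of 1784 bases, held 53.5% and 54.6% of Col12a1. Col27a1-205 held 38.2% and 50.7% of Col27a1, Col4a5-204 held 43.1% and 48.6% of Col4a5, and Col5a1-202 held 15.9% and 29.9% of Col5a1. Over the family, 19 incomplete models in 18 genes, of 633 to 5441 bases, each took 10% or more in both libraries. Of these, 14 start in the last part of the gene, beyond 2 of 3 of its length. Neither count was made for other genes, so neither sets the family apart. Shares among transcripts are estimates, since these models share exons with the complete ones.

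**Figure D2:**
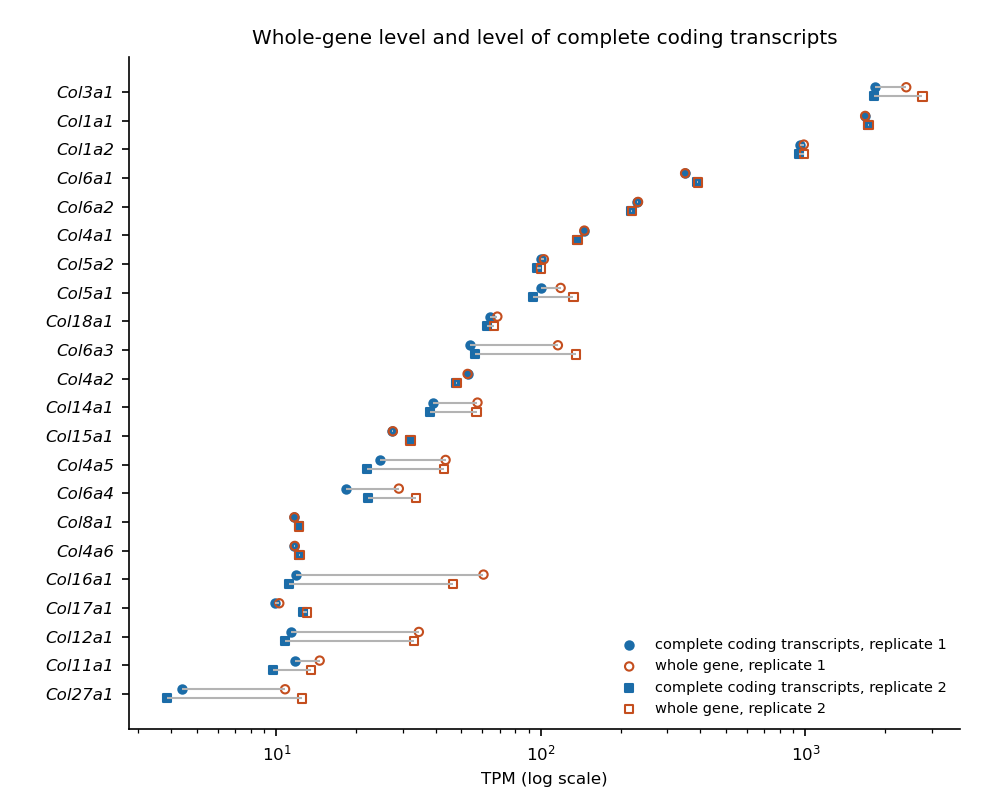
TPM (log axis) of the 22 collagen genes at a mean of 10 TPM or more: open orange symbols, the whole gene; filled blue symbols, complete coding transcripts only; circles, replicate 1; squares, replicate 2; grey lines join the values of a library. Col1a1, Col6a1 and Col4a2 show no visible gap, while Col16a1, Col12a1, Col27a1 and Col6a3 lose over 50% of their level.

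The 6 chain ratios recomputed from complete transcripts only are those of types I, IV, V and VI. Col5a1 over Col5a2 went from 1.16 and 1.32 to 0.998 and 0.962 (log2 -0.03 ± 0.04), which is within its spread of equal levels. Col6a1 over Col6a3 went from 3.03 and 2.90 to 6.52 and 6.94, and Col4a5 over Col4a6 from 3.71 and 3.52 to 2.11 and 1.81. Col1a1 over Col1a2 moved slightly, to 1.75 and 1.82, by more than its SD. Col4a1 over Col4a2 (2.76 and 2.85) and Col6a1 over Col6a2 (1.51 and 1.78) moved by less than their SD. The fibrillar share of collagen TPM was 80.6% by either measure. This way of counting was chosen after the values had been seen.

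**Figure D3:**
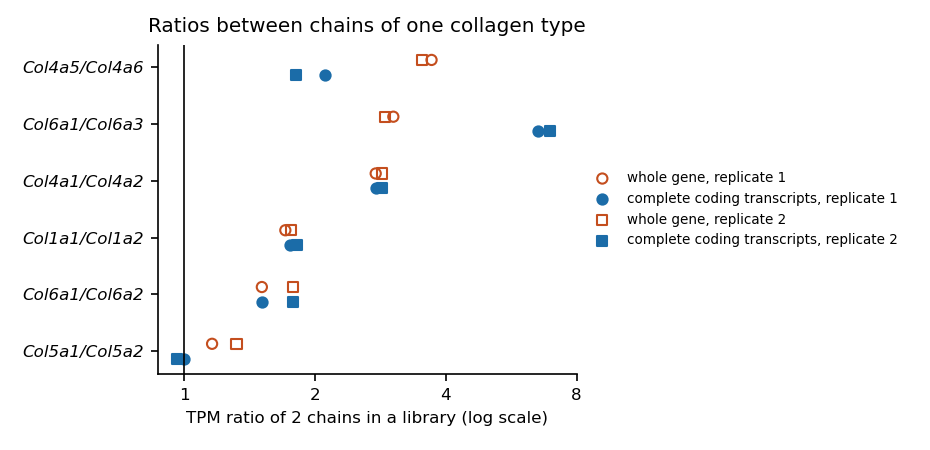
TPM ratio between 2 chains of a collagen type within each library (log axis), from whole genes (open orange) and from complete coding transcripts (filled blue); circles, replicate 1; squares, replicate 2; the vertical line marks a ratio of 1. The pairs Col6a1/Col6a3 and Col4a5/Col4a6 move in opposite directions between the measures and Col5a1/Col5a2 moves to the line.

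The share of complete transcripts was lower in replicate 2 for 23 of 34 detected members with both complete and incomplete models in use, against 50.4% of protein-coding genes chosen the same way. The median difference within a gene, replicate 2 minus replicate 1, was small: -0.307 percentage points over these members and -0.0325 over all such genes. The leading coding transcript was the same in both libraries for 25 of 26 members, against 90.9% of all genes with 2 or more coding transcripts. The exception was Col7a1, led by Col7a1-201 in replicate 1 (1.12 TPM, then 0 in replicate 2) and by Col7a1-202 in replicate 2 (0.38, then 1.16); these are 9198 and 9250 bases long.

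Alternative starts were compared in 3 genes. Col18a1 makes a short form and 2 longer forms from separate starts on chromosome 10. The short-form transcript Col18a1-202, which starts at 77166548, held 87.8% and 88.5% of the gene (88.1 ± 0.533%), at 60.05 and 58.91 TPM. Transcripts Col18a1-203 and Col18a1-201, which start inside the gene at 77113705 and 77113946, held 5.31% and 2.36% and 0.818% and 2.69%. Col9a1 likewise has an upstream start at 24177610 on chromosome 1, used in cartilage, and an inner start at 24195187, used in other tissues such as the eye. Col9a1-202, from the inner start, held 96.8% and 95.6% of the gene, and Col9a1-201, from the upstream start, was listed at 0 in replicate 1 and held 4.44% in replicate 2. Col15a1 was split between Col15a1-202, whose 40 exons hold the helix (61.5% and 49.8%), and Col15a1-203, which starts at 91.0% of the gene's length (36.9% and 48.1%). Col15a1-203 has 8 exons and 1755 bases but counts as a complete coding transcript by its annotation. The complete share of Col15a1, 99.1% and 100%, therefore includes it. In the first 2 genes 1 start held nearly all of the level in both libraries.

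The windows before these starts are shown, from RefSeq promoters on GRCm38.p6, at positions -200 to -51 from the RefSeq start, clear of annotated exons: before the predominant start of Col18a1 (chr10:77166581-77166730, minus), before the upstream start of Col9a1 (chr1:24177410-24177559, plus) and before its inner start (chr1:24195003-24195152, plus). Capitals mark GGGCGG on either strand.
Col18a1: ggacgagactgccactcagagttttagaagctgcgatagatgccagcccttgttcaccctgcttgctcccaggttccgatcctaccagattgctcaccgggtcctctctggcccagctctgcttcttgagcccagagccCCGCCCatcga
Col9a1 upstream: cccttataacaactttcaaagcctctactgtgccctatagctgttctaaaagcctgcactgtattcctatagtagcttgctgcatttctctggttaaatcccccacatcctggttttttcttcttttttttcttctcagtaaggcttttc
Col9a1 inner: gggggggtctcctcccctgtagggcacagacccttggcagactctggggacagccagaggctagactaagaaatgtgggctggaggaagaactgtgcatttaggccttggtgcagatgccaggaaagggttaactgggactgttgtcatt
The Col18a1 window has 1 match to GGGCGG (on the other strand) and the Col9a1 windows have none, where 22.3% of 32851 windows at this place have one on either strand. The motif CCAAT was in none of the 3 and in 23.5% of all windows. The GC content was 40.0% before the upstream start of Col9a1 and 56.0% before the inner one.

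Over the full promoter windows (250 bases before to 50 after the start), RefSeq had 38 for 35 of the 44 members. GGGCGG on either strand was in 23 of them (60.5%, against 35.7% of all 32851), CCAAT on either strand in 13 (34.2% against 37.4%) and TATAAA on the gene's strand in 5 (13.2% against 8.32%). Among the leading genes, the Col3a1 window held TATAAA and neither of the other 2 motifs, and the Col1a2 window held CCAAT and GGGCGG and no TATAAA. A match is a stretch of letters and not a bound site.

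The classes also differ in the structure of their exons. Reading the leading complete coding sequence of each member, fibrillar genes had 2 to 3 stretches of unbroken triplets (at least 5 in a row), the longest of 216 to 344 triplets. The shortest of these were Col24a1 (216) and Col27a1 (217), and the other 9 lay at 337 to 344. Type IV genes had 22 to 27 stretches, the longest of 39 to 66 triplets. Type VI genes had 103 to 110 triplets in all, and FACIT genes 50 to 340.

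Exon lengths also differed between the classes. Exactly 54 bases were found for 305 of 536 helix exons of fibrillar genes (56.9%), 108 of 266 of FACIT genes (40.6%), 17 of 105 of type VI genes (16.2%) and 12 of 257 of type IV genes (4.67%). Over all members it was 466 of 1447 (32.2%), where 0.445% of 156398 internal coding exons of other genes have that length. Multiples of 9 bases hold whole triplets. They made up 95.3% of fibrillar, 89.5% of type VI, 75.2% of FACIT and 51.4% of type IV helix exons. Among internal coding exons of other genes the share was 13.7%.

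**Figure D4:**
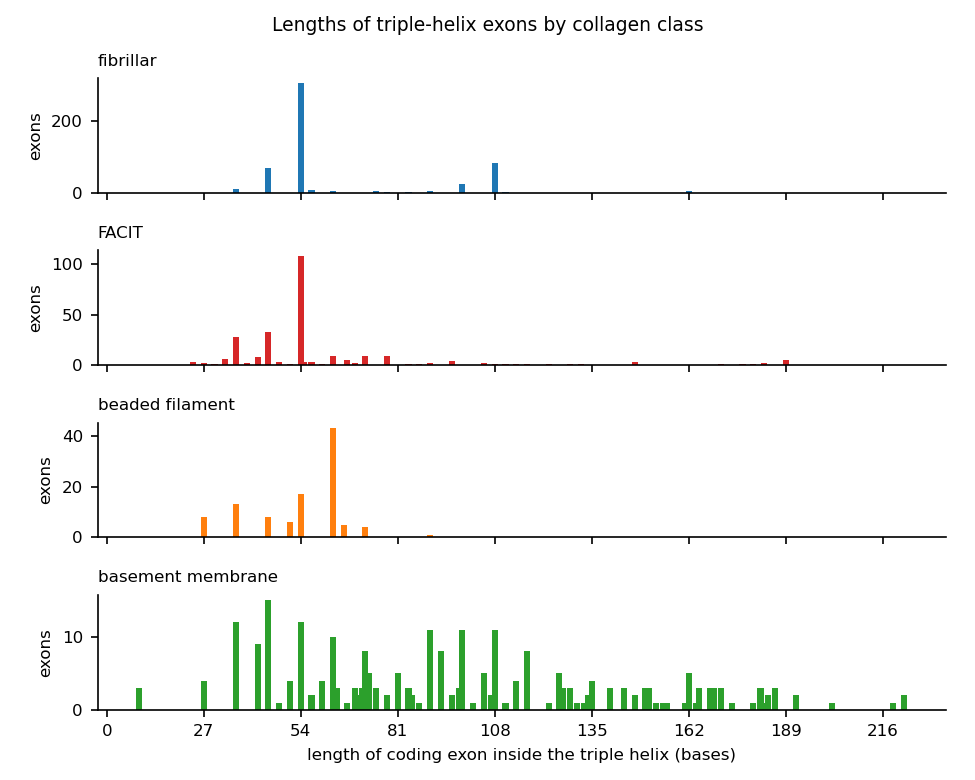
Number of coding exons inside the triple helix (vertical axis) by length in bases (horizontal axis), for fibrillar, FACIT, beaded filament (type VI) and basement membrane (type IV) genes; lengths over 240 bases are not drawn. Fibrillar and FACIT exons pile up at 54 bases, type VI exons at 63 bases, and type IV lengths are spread.

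The use of the glycine codon GGT was highest in 6 fibrillar genes. It was 53.8% of the triplets' glycine codons in Col1a1, 51.3% in Col1a2, 41.2% in Col2a1, 40.6% in Col3a1, 39.2% in Col11a1 and 35.3% in Col5a2, where it was 17.7% of glycine codons in other genes and a median of 23.3% over the 44 members. The other 5 fibrillar genes ran from 28.3% in Col5a1 to 16.1% in Col27a1, below Col4a5 (32.0%) and Col17a1 (30.5%). In all, 36 of 44 members lay above 17.7%, including 18 of the 22 at a mean of 10 TPM or more. The 17.7% is pooled over the codons of all other genes. How many other genes lie above it was not counted, so neither count sets the family or its abundant genes apart. Col2a1, which was not detected, had a share as high as Col3a1, so a high share was not limited to the abundant genes. Single exons vary: among those printed above, GGT opens 4 of the 6 triplets of the Col1a2 exon and none of that of Col5a2.

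The enzymes that make collagen were detected almost throughout, where 64.3% of all nuclear protein-coding genes were detected. Of the genes for proline hydroxylation, 10 of 10 were detected, led by P4hb, the shared subunit of prolyl 4-hydroxylase, at 835.7 and 997.6 TPM and by the cyclophilin Ppib at 645.0 and 648.1, with P3h2 lowest at 1.84 and 2.25. For lysine hydroxylation and glycosylation 4 of 5 were detected: Colgalt1 at 45.57 and 54.36 and Plod1 at 45.67 and 47.16 were highest, and Colgalt2 was lowest at 1.26 and 0.88. Chaperones and export factors were detected in 8 of 8, led by Serpinh1, the collagen chaperone of the endoplasmic reticulum, at 1003 and 1073 TPM, then Fkbp10 at 92.70 and 99.99, with Tmem38b lowest at 11.06 and 8.94. Serpinh1 was thus of the level of Col1a2.

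Processing outside the cell was represented by 5 of 7 propeptide genes, beside the same background of 64.3%. Pcolce, an enhancer of propeptide removal, stood at 118.1 and 126.7 TPM and the protease gene Bmp1 at 29.93 and 28.72, with Pcolce2 lowest at 0.70 and 0.36. All 5 crosslinking oxidases were detected, with Lox at 113.8 and 111.2, Loxl2 at 37.62 and 44.59 and Loxl4 at 4.06 and 4.31. Of the receptors 8 of 10 were detected, from Itgb1, the integrin subunit that collagen-binding integrins share, at 255.5 and 251.2 and the kinase receptor Ddr1 at 65.76 and 72.38 to the platelet receptor Gp6 at 0.06 and 0.22. Among genes of breakdown and its inhibitors 8 of 9 were detected, with the gelatinase gene Mmp2 at 102.7 and 113.5, its activator Mmp14 at 94.86 and 99.29 and the collagenase gene Mmp13 at 0.37 and 0.47. No gene of these lists that passed the filter on low counts was beyond 2-fold between the pools, where 3.58% of all genes were. At that share few genes of lists this short would be, so this does not set them apart. The medians of the log2 ratio (replicate 1 over replicate 2) by role lay between -0.10 and 0.01.

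The pools differed little over the family, and the direction depended on the scaling. This is a ratio of 1 library to 1 library, scaled by TMM on expected counts, and 43 of 44 members passed the filter on low counts. None of them was beyond 2-fold, where 3.58% of all 17763 genes past the filter were. The log2 ratio of replicate 1 over replicate 2 was positive in 32 and negative in 11, with a median of 0.11, beside 0.002 for all genes and 0.005 for protein-coding genes. By deposited TPM 27 were higher in replicate 1 and 16 in replicate 2. Scaling by spike-in totals, which moved the median of all genes to -0.57, turned the median of the members to -0.47, with 4 higher in replicate 1. With TMM the median was 0.07 for the 22 members at 10 TPM or more (14 positive), beside -0.010 for protein-coding genes at that level, of which 47.4% were positive. It was 0.36 for the 21 members below (18 positive), beside 0.041 for protein-coding genes, of which 56.2% were positive. Within 1.2-fold lay 28 members (65.1%, against 77.0% of protein-coding genes).

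The members farthest to the side of replicate 1 were Col13a1, Col9a2, Col26a1, Col2a1 and Col8a2. Col13a1, at 3.22 and 1.83 TPM, had a log2 ratio of 0.97 (1.96-fold, 95% exact counting interval 1.53 to 2.60). Col9a2 had 0.67 (1.59-fold, 1.31 to 1.95), Col26a1 0.64 (1.55-fold, 1.36 to 1.78), Col2a1 0.62 (1.53-fold, 1.06 to 2.32) and Col8a2 0.49 (1.41-fold, 1.26 to 1.57). The first 4 are the members beyond 1.5-fold (9.30% of 43), where 4.13% of all genes were beyond it on this side and 5.15% on the other. On the side of replicate 2 were Col17a1 at -0.32 (0.802-fold, 0.744 to 0.864), Col6a5 at -0.27, Col6a4 at -0.23, Col28a1 at -0.15 and Col6a1 at -0.12. The interval of Col28a1 (0.715 to 1.13) includes no difference. All intervals cover counting error only and not the spread between pools.

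By class and by counts scaled with TMM, all 9 FACIT members were higher in replicate 1 (median log2 ratio 0.40). By deposited TPM it was 8 of 9, Col20a1 being the exception. The counting intervals of Col19a1 (0.990 to 1.31), Col9a1 (0.866 to 1.58) and Col20a1 (0.897 to 2.31) include no difference. Scaling by spike-in totals left only 4 of all members higher in replicate 1, so the direction of this class depends on the scaling. Of the fibrillar members, 10 of 11 were higher in replicate 1 by counts (median 0.08), with Col3a1 and Col1a1 within 0.01 of 0. By TPM it was 6 of 11, and the class sum was lower in replicate 1 (5327 against 5756 TPM). The direction of the fibrillar class therefore depends on the unit as well. Of the type VI members, 4 of 6 were higher in replicate 2 by either unit (median -0.09 by counts). Markers of several cell types moved between the same pools. Skeletal muscle markers were higher in replicate 1 in 10 of 10 (median log2 ratio 4.47), and tendon markers in 5 of 6 (median 0.27, summed level 30.5 and 27.4 TPM, Tnmd 3.48 and 2.42). Cartilage markers were higher in replicate 1 in all 4 that passed the filter (median 0.35, summed level 32.5 and 31.7 TPM, of which Sox9 alone held 26.27 and 26.17). Of these 4, Sox9 (0.041) and Hapln1 (0.004) lay near 0. Macrophage markers were higher in replicate 1 in 4 of 5 (median 0.13). On the other side, stomach markers were higher in replicate 2 in 5 of 6 (median -0.64), as were smooth muscle markers (5 of 6, median -0.23). Bone markers were higher in replicate 2 in 4 of the 5 that passed the filter (median -0.12). Basal squamous markers were higher in replicate 2 in 5 of 6 (median -0.37), on the side of Col17a1. Col7a1, also named with squamous epithelium above, lay on the side of replicate 1 at 0.36 (1.29-fold, 1.09 to 1.53). Simple epithelial markers were higher in replicate 2 in 5 of 5 (median -0.31). Fibroblast markers lay near 0 (median -0.02, 3 of 9 higher in replicate 1). The part of these cell types in the collagen ratios was not tested.

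**Figure D5:**
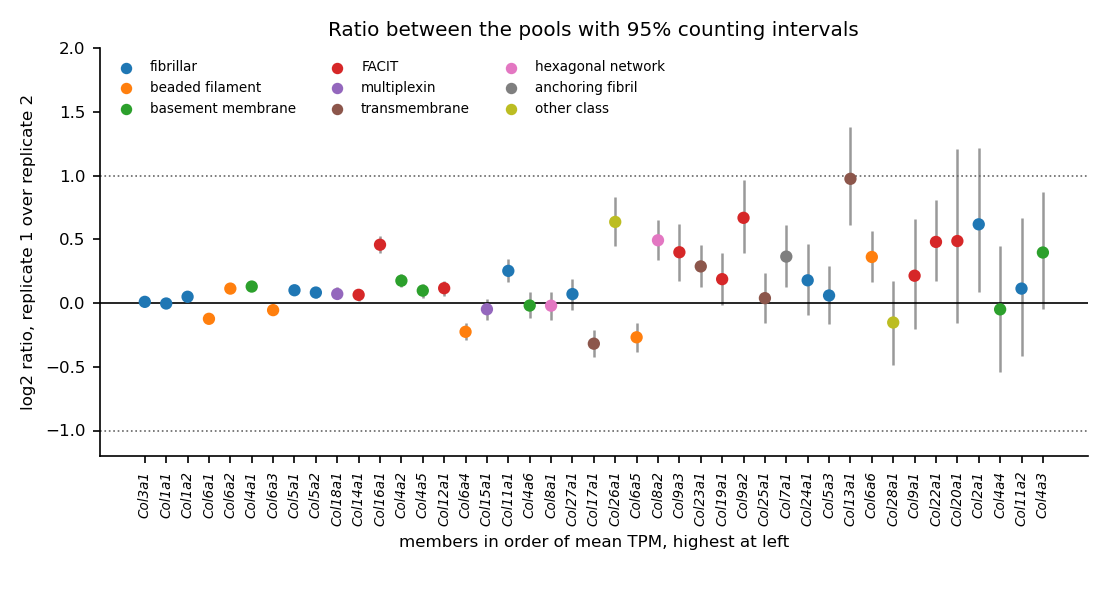
Log2 ratio of replicate 1 over replicate 2 (vertical axis) for the 43 members that passed the filter, in order of mean TPM and coloured by class; grey bars are 95% exact counting intervals and dotted lines mark 2-fold. The 9 members at the left, above 100 TPM, lie between -0.12 and 0.13, and the widest bars belong to the lowest genes at the right.

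The unit mattered for Col3a1. By counts its ratio was 1.01-fold (1.00 to 1.01), while its TPM was lower in replicate 1 (2405 against 2771). Its complete transcript, at 1828 and 1820 TPM, was close in both, and the short model Col3a1-205 made the difference between the 2 gene levels. Col16a1 was higher in replicate 1 by counts (1.37-fold, 1.31 to 1.44) and by gene TPM (60.66 against 46.49), while its complete transcript stood at 11.84 and 11.11 TPM.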

How the data were processed

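Total RNA above 200 nt, 10 ng a library, was sequenced from 2 pools, per the labels, which list a SMARTer Ultra Low kit manual. The deposited text files name mm10 with annotation M4. The aligner, the quantifier and strandedness were not given in the sources used here. Expected counts, TPM, posterior mean TPM and FPKM were deposited by the authors per gene and per transcript, per the file headers. The FPKM values that the authors deposited served only as an alternative.

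Members, lists and alternatives were chosen with earlier results of these data known. Symbols and positions are those of GENCODE M21 (GRCm38, a later release). Levels are deposited TPM. Expected counts were rounded, filtered with filterByExpr (1 group) and given TMM factors (1.008 and 0.992) by edgeR 4.0.16 under R 4.3.3, with a prior count of 2. With 1 group no test could be run. Fold intervals are exact Clopper-Pearson at 95% on the split of counts. The ratio step was tested on simulated data. Spike-ins and features with numeric identifiers (74.99 and 27.0 counts) stayed out. Depth sets the precision.

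Named were every member, the 5 largest ratios each way, and the 2 highest and the lowest gene of each biosynthesis, receptor and breakdown role. Of some marker lists the highest and lowest genes were named. Other marker lists were given in part or by summary values, and those of pericytes, glia and mesothelium were left out. Further markers were chosen after their values were seen. Helix features came from translated GENCODE coding sequences in place of RefSeq proteins. Promoters are RefSeq's (GRCm38.p6). Alternative size factors came from DESeq2 1.42.0. Tables were handled with pandas 2.3.3 and numpy 2.4.6 in Python 3.11.15, intervals with scipy 1.17.1, and plots with matplotlib 3.10.9.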

Additional observations from a re-analysis of the deposited data

Results flagged for a closer look

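Reads were assigned to 2 member transcripts that have no record in GENCODE M21 and so entered no sum of complete coding transcripts. The Col18a1 transcript (1956 bases) drew 238.1 and 122.4 expected counts in replicates 1 and 2, and the Col1a2 transcript (640 bases) 109.9 and 84.67, where a count of 0 would allow up to 3; there are no control samples.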

How the results depend on the processing

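The number of detected members was 38 and stayed within 1.5 times of that in all alternatives run (26 at 5 TPM, 40 at 0.5 TPM, 36 by FPKM, 41 by posterior mean TPM, 37 from complete coding transcripts). Expected counts not corrected for length gave 2.44% for the collagen share, 81.7% for the fibrillar share, 0.98 for the log2 ratio Col1a1 over Col1a2 and 1.52 for Col4a1 over Col4a2. With all features but spike-ins as denominator the collagen share was 0.728%. Complete coding transcripts, an alternative chosen after seeing the data, gave 0.84 for Col1a1 over Col1a2 and -0.029 (SD 0.0378) for Col5a1 over Col5a2, within its spread of 0. Leaving out each library in turn gave 0.8385 to 0.8636% for the collagen share, 80.12 to 81.09% for the fibrillar share, 0.77 to 0.81 for Col1a1 over Col1a2 and 1.47 to 1.51 for Col4a1 over Col4a2. Scaling by spike-in totals reversed the median log2 ratio of the pools to -0.465 and left 4 members higher in replicate 1; it moved the median of all genes to -0.572, and 32 members lay above the median of all genes as with TMM. By deposited TPM (pseudocount 0.1) the median was 0.040 with 27 members higher in replicate 1. No member was beyond 2-fold under any scaling, filter, unit or prior count run. With TMM 4 were beyond 1.5-fold, and over the alternatives it was 1 (TPM, pseudocount 1) to 10 (spike-in totals). At a mean of 10 TPM, 13 of 13 members kept their leading transcript, because fewer genes qualify; with posterior mean TPM it was 23 of 26. Low members are limited by depth: the counting interval of Col20a1 runs from 0.897 to 2.31-fold. No paired analysis was possible because the labels give 1 group.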
